A study of Rattus norvegicus and Mus musculus with 12 samples.

Results

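The collagen genes described here are those that encode the alpha chains of collagens other than the cartilage set. They were chosen by gene symbol alone, as every symbol made of Col, a type number, the letter a and a chain number, without Col2a1, Col9a1, Col9a2, Col9a3, Col10a1, Col11a1, Col11a2 and Col27a1. This gave 36 genes over both species, namely 35 of the 19687 genes in the rat table and 36 of the 28603 genes in the mouse table, and 35 of them were in both. Col6a3 was read from the mouse table only and was not analysed here in rat. All collagen alpha-chain genes together number 43 in rat and 44 in mouse.

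The chondrocytes came from the articular cartilage of Sprague–Dawley rats and C57BL/6 mice that were 24 h old, were freed with collagenase type II and were grown in serum-containing medium to passage 1. The RM and MM groups are rat and mouse chondrocytes given 20 ng/ml IL-1β, an inflammatory cytokine used to model arthritic damage in culture, for 24 h. The RC and MC groups are rat and mouse chondrocytes grown without IL-1β. Each group has 3 RNA-seq libraries, and the comparison asks whether the same cytokine changes these collagen genes in the same way in both species. The strain label differs between mouse libraries, from C57BL/6 to C57BL/9, whereas the methods name C57BL/6. The sources call the samples of a group independent without naming animals or cultures, so the tests measure only the spread between these samples.

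Collagens are built from 3 alpha chains wound into a triple helix, which requires that each triplet of residues in the helical part starts with glycine. Fibrillar collagens such as types I, III and V pack into the fibrils that carry tension, and type V chains set how thick the type I fibrils become. Network collagens, types IV and VIII, form sheets such as basement membranes, FACIT collagens sit on the surface of fibrils, and the beaded filaments of type VI surround chondrocytes in the pericellular matrix. The remaining members are type VII of anchoring fibrils, the transmembrane types XIII, XVII, XXIII and XXV, and types XV and XVIII, whose ends can be released as fragments. Articular cartilage is built mainly from the cartilage set, and a rise of type I over type II collagen is a known sign of chondrocyte dedifferentiation in culture.

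The classes differ in how long the glycine repeat runs without a break, which is shown here because the classes order the results. In the mouse coding sequences of GENCODE M21, an annotation of GRCm38, the longest unbroken run in the 7 fibrillar genes was 216 to 344 triplets (median 338). It was 39 to 66 triplets in the 8 network genes, which held 10 to 27 separate runs of at least 3 triplets. The longest run was 32 to 113 triplets in the 6 FACIT genes, 23 to 87 in the 8 beaded filament genes and 30 to 75 in the 7 others. The end of the longest run is printed for 5 genes as 30 codons, with the glycine codons of its last 5 triplets in capitals and the 15 codons after the break in lower case. The stretches lie at chr11:94950291-94950380 (Col1a1, plus strand), chr9:20772450-20773120 (Col5a3, minus strand), chr8:11244507-11245084 (Col4a1, minus strand), chr15:55497478-55498469 (Col14a1, plus strand) and chr10:76714429-76715012 (Col6a1, minus strand). All bases shown are coding, and all but the Col1a1 stretch span an intron.
Col1a1: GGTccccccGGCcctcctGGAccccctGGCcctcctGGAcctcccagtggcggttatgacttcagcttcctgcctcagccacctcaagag
Col5a3: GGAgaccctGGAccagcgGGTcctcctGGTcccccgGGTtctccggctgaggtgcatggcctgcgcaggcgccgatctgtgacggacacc
Col4a1: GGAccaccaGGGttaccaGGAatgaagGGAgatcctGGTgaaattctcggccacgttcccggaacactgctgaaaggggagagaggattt
Col14a1: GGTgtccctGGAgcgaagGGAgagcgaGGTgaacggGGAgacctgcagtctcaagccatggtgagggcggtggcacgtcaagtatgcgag
Col6a1: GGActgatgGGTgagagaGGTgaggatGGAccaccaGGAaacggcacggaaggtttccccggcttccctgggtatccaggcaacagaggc

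Between 20169272 and 25903459 reads were counted on genes in each rat library and between 16841580 and 20048322 in each mouse library. Levels are given as FPKM, the count divided by gene length and library total, and changes as log2 fold changes of the model group against the control group from edgeR, on counts scaled by TMM. A gene was called when its Benjamini-Hochberg adjusted p in edgeR's quasi-likelihood test was under 0.05. Replicates varied less in mouse, with a biological coefficient of variation of 0.0318 against 0.106 in rat, so smaller changes were callable in mouse. All 8 chondrocyte markers were above an FPKM of 1 in both species and all 8 were lower in the model group, with a summed level of 1196 to 1313 in RC, 409 to 436 in RM, 697 to 706 in MC and 76.5 to 86.8 in MM. All endothelial and epithelial markers in the tables had mean FPKM under 1, as did the macrophage and leukocyte markers except Cd68, which was at 3.96 in RC, 7.63 in RM, 3.52 in MC and 8.23 in MM.

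Of the 35 members in rat, 27 had enough counts to be tested. In the RM group, 16 were lower and 5 were higher than in the RC group, and 6 were not called. These 16 are 59.3% of the members tested, against 16.8% of all rat genes tested that were lower. The 5 are 18.5%, against 18.3% of all rat genes that were higher, so rises were about as frequent among the members as among all genes. With a log2 fold change of at least 0.85 and an FPKM of at least 1 in 1 library also required, 7 members were lower and 3 higher, where the shares of all genes were 3.73% and 4.49%. The median log2 fold change of the members tested was -0.71, against 0.01 for all rat genes. In bulk RNA, fewer cells of a type and less RNA per cell cannot be told apart.

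In mouse, 33 of the 36 members were tested. In the MM group 20 were lower and 9 higher than in the MC group, and 4 were not called. The 20 are 60.6% of the members tested, against 37.7% of all mouse genes that were lower, and the 9 are 27.3%, against 37.4% of all mouse genes that were higher. With the same size and level required, 11 members were lower and 4 higher, beside 13% and 12.6% of all genes. The median log2 fold change was -0.5 among the members tested, against -0.02 for all mouse genes. Members of low level such as Col6a6 (429 reads in MC, 11 in MM) and Col19a1 (33 and 138 reads) passed the filter on low counts through the group in which they were higher. Col15a1 (924 and 42 reads) and Col25a1 (134 and 21 reads) did so too. The counts over tested members are therefore a description only. The median of all mouse genes moves to -0.3 when only library size is used for scaling, and 2 members with small rises, Col3a1 and Col8a1, then have negative values.

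**Figure D1:**
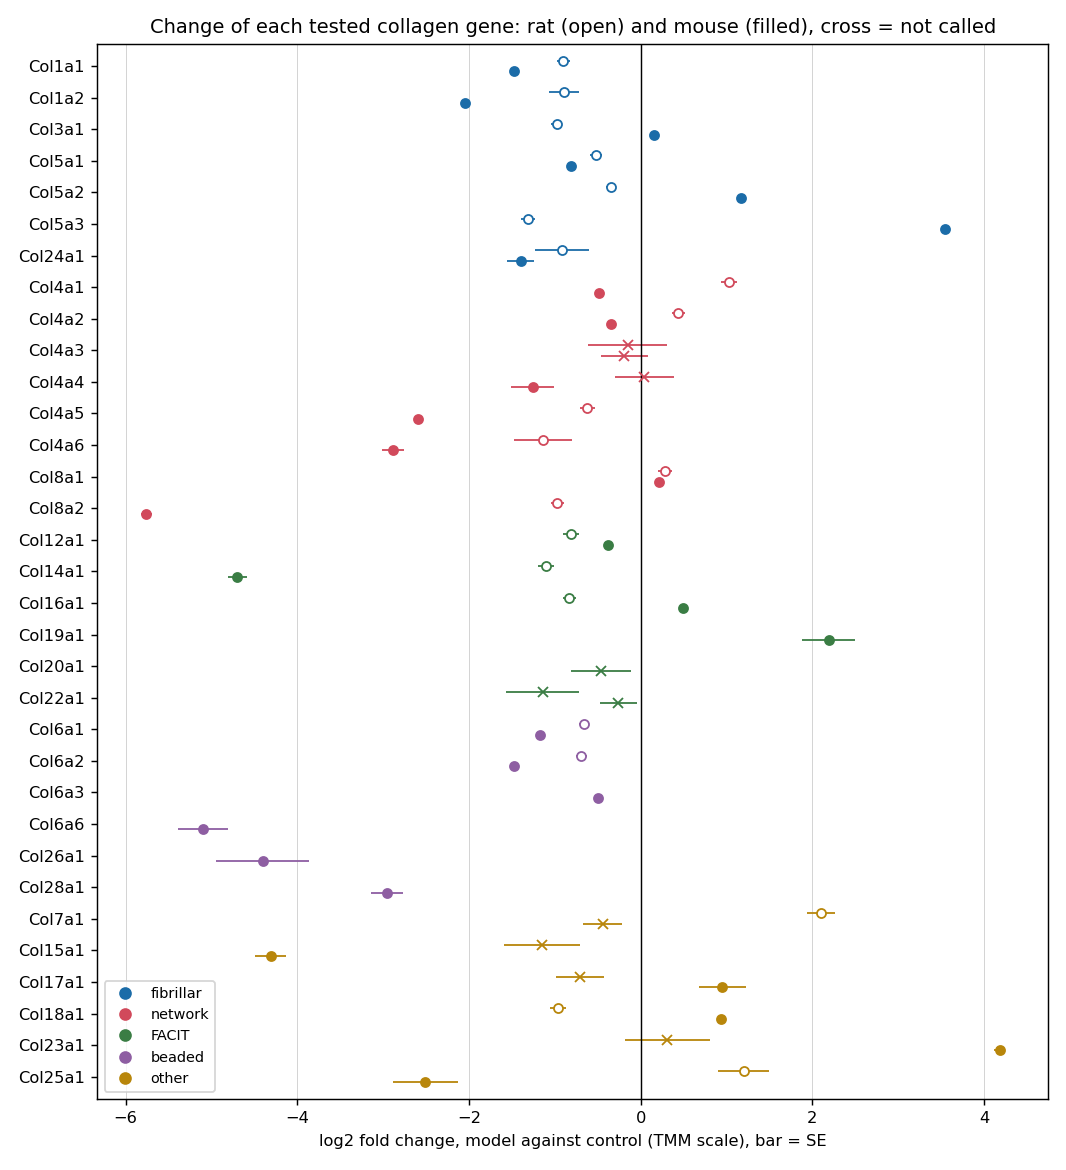
Each row is a collagen gene tested in rat (open symbols) or mouse (filled symbols), the x axis is the log2 fold change of the model against the control group on the TMM scale, bars are standard errors, crosses mark changes that were not called and colours mark the class. All 7 fibrillar genes lie left of 0 in rat, whereas 3 of them (Col3a1, Col5a2 and Col5a3) lie right of 0 in mouse, Col3a1 at 0.16 on this scaling and at -0.12 with library size alone.

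Fibrillar collagens fell together in rat and split in mouse. All 7 were lower in RM than in RC, with log2 fold changes from -1.31 (Col5a3) to -0.35 (Col5a2) and a median of -0.9. In mouse 4 fell, which were both type I chains, Col5a1 and Col24a1, while Col5a2 and Col5a3 rose and Col3a1 had a small rise that depends on the scaling.

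Col1a1 (ENSRNOG00000003897 in rat, ENSMUSG00000001506 in mouse, chr11:94936224-94953042 of GRCm38) encodes the alpha 1 chain of type I collagen, the main collagen of bone, skin and tendon, and was the most abundant member in both control groups. Its FPKM was 2029, 2406 and 2056 in the RC libraries and 1105, 1177 and 1245 in the RM libraries. In the mouse it was 1873, 1878 and 1911 in MC and 552, 565 and 558 in MM. Every model library was below every control library in both species. The log2 fold change was -0.9 (SE 0.0754, edgeR adjusted p = 1.03e-05) in rat and -1.48 (SE 0.0217, edgeR adjusted p = 2.02e-56) in mouse.

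Col1a2 encodes the alpha 2 chain, which joins 2 alpha 1 chains in the type I molecule. It fell in both species as well, with a mean FPKM of 35.2 ± 3.85 in RC, 19.2 ± 5.86 in RM, 963 ± 4.38 in MC and 192 ± 2.84 in MM (SD, n = 3). The rat level is low beside Col1a1, since the ratio of Col1a1 to Col1a2 was 61.6 in RC and 1.96 in MC. The gene length implied by the FPKM values was 4475 bases for Col1a2 in the rat table and 12426 bases in the mouse table. Why the rat count is low was not tested, and the level of Col1a2 and sums that hold it are given within each species.

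Col3a1 (ENSRNOG00000003357, ENSMUSG00000026043, chr1:45311538-45349706) encodes type III collagen, a thin-fibril collagen of vessels, skin and healing tissue. Its FPKM was 896, 982 and 871 in RC and 471, 465 and 472 in RM, a fall of 0.98 on the log2 scale (SE 0.0607, edgeR adjusted p = 1.04e-06). The mouse values were 345, 340 and 333 in MC and 314, 314 and 311 in MM. The rat groups lie far apart, while the mouse groups differ little, with every MM library slightly lower in FPKM. The fitted mouse change was 0.16 (SE 0.0231, edgeR adjusted p = 5.8e-09) after TMM scaling and -0.12 with library size alone, so the data give no direction for Col3a1 in mouse that is free of the scaling. An annotated gene on the same strand, Gm47302, shares 1.44% of its exon length.

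Col5a3 (ENSRNOG00000020525, ENSMUSG00000004098, chr9:20770050-20815067) encodes the alpha 3 chain of type V collagen, a minor chain with a narrow tissue range. In rat its FPKM was 26, 29.1 and 28.2 in RC and 11.3, 10.4 and 12.2 in RM. In the mouse libraries it was 5.1, 5.14 and 5.08 in MC and 48.4, 49 and 49.6 in MM. The RM libraries were all below the RC libraries and the MM libraries were all far above the MC libraries. The log2 fold change was -1.31 in rat (SE 0.0815, edgeR adjusted p = 1.05e-06), the largest fall among the rat members, and 3.54 in mouse (SE 0.0401, edgeR adjusted p = 9.07e-63).

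The partner chains of type V collagen went separate ways in mouse. Col5a2 (chr1:45374321-45503282), which encodes the alpha 2 chain, had FPKM of 665, 635 and 622 in RC and of 515, 506 and 505 in RM. In mouse its FPKM was 316, 313 and 310 in MC and 579, 584 and 579 in MM, which made it the most abundant member of the MM group. The groups do not overlap in either species, and the direction is opposite, with log2 fold changes of -0.35 (SE 0.0544, edgeR adjusted p = 0.000681) and 1.17 (SE 0.0225, edgeR adjusted p = 8.22e-50). Col5a1, the alpha 1 chain that most type V molecules contain, fell in both species, by 0.52 in rat and by 0.81 in mouse on the log2 scale. Col5a2 and Col3a1 are tail-to-tail neighbours 24614 bases apart in the mouse genome.

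Col24a1, a minor fibrillar chain, was the lowest of the class. It fell from 0.461 ± 0.116 to 0.244 ± 0.0761 FPKM in rat, where the groups overlap, and from 1.22 ± 0.142 to 0.383 ± 0.0939 in mouse (SD, n = 3). The rat call (edgeR adjusted p = 0.0433) was lost with DESeq2 (adjusted p = 0.0505), with limma on log2 FPKM, and when RC2, RC3, RM1 or RM2 was left out, with adjusted p from 0.123 to 0.14.

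Markers of other cells also changed in both species, in both directions. The summed FPKM of 8 fibroblast and perichondrium markers was 80.2 to 84.2 in MC and 647 to 661 in MM, mostly through Dcn, which rose from 22.9 to 601, while 3 of the 8 were higher and 4 lower. In rat it was 758 to 822 in RC and 740 to 773 in RM, mostly from Thy1 (mean FPKM 726 and 660), with 1 higher and 2 lower. The 1 higher was again Dcn, which rose from 5.91 to 28.9 mean FPKM in rat. The summed FPKM of 6 muscle and contractile markers was 158 to 180 in MC and 6.65 to 7.07 in MM, and 27.9 to 36.6 in RC and 19.2 to 22.9 in RM, largely through Acta2. The 6 osteoblast markers, a cell type rich in type I collagen, summed to 20.5 to 21.3 in MC and 4.38 to 4.69 in MM, and to 11.8 to 12.4 in RC and 4.48 to 5.6 in RM. The 3 tendon markers summed to 31.7 to 34 in MC and 17.9 to 18.9 in MM, and to 17.1 to 22 in RC and 21.2 to 22 in RM. Of the muscle markers, 4 were lower and none higher in mouse, while 2 were lower and 1, Myh11, was higher in rat. Osteoblast markers were lower in 6 of 6 in mouse and in 3 of 6 in rat, where Bglap and Dmp1 were not tested, with none higher. Among tendon markers 2 were lower in mouse and none was called in rat. Of all genes tested, 37.7% were lower in mouse and 16.8% in rat. Markers such as mouse Dmp1 (44 reads in MC, 0 in MM), Bglap, Ibsp, Sp7 and Myh11 (52 and 3 reads) passed the filter on low counts through MC. Rat Sp7 (45 reads in RC, 15 in RM) did so through RC. These marker counts are therefore a description only. The part of these cells in the collagen values was not tested.

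**Figure D2:**
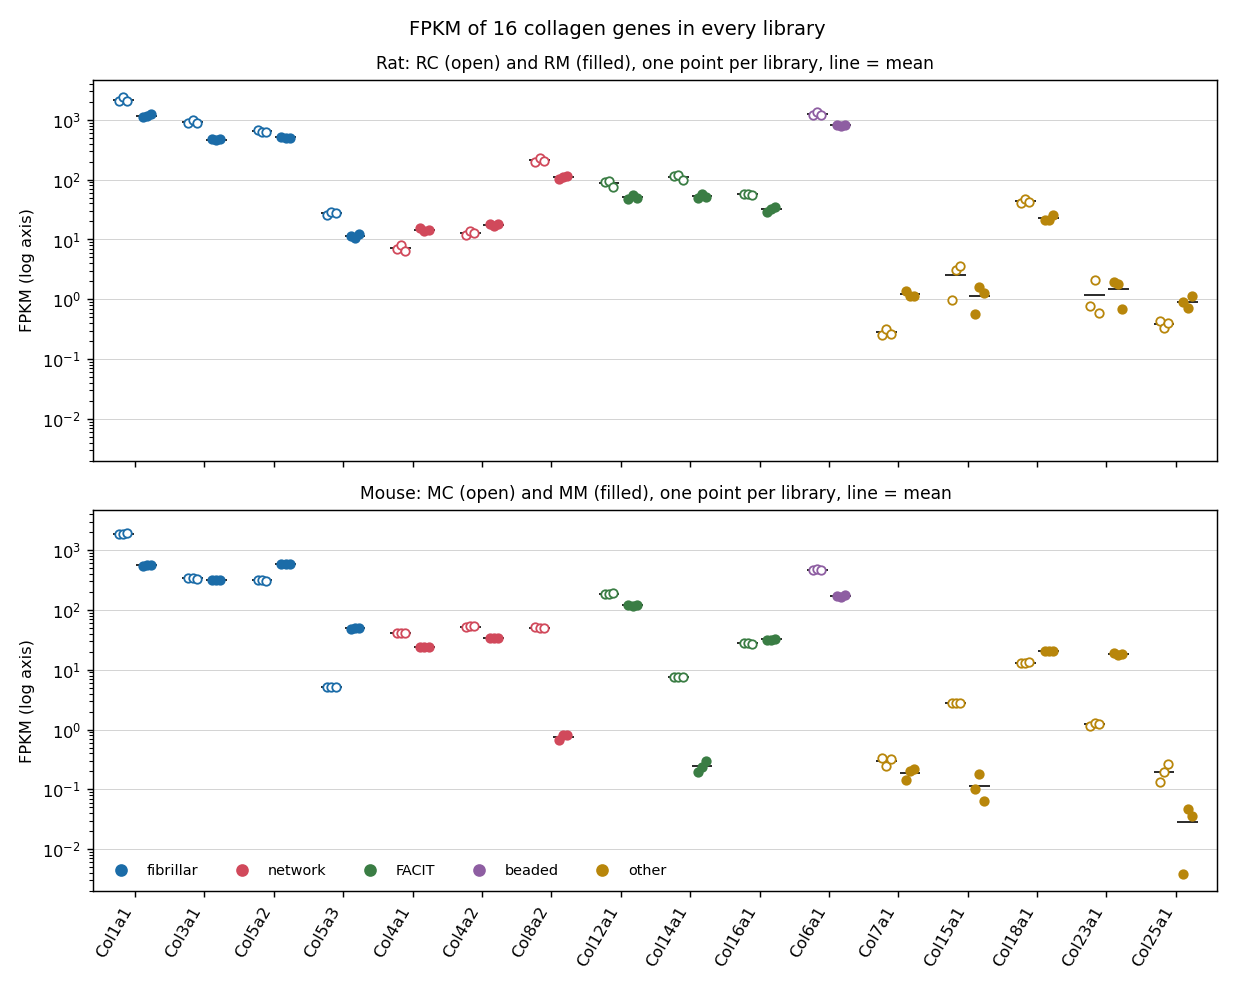
The y axis is FPKM on a log scale for 16 collagen genes in rat (upper panel) and mouse (lower panel), with control libraries open, model libraries filled and the mean of 3 libraries as a line. Col5a3 drops from about 28 to 11 FPKM in rat and climbs from 5.1 to 49 in mouse, and mouse Col8a2 and Col14a1 end below 1 FPKM in MM.

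Network collagens held 3 of the 5 rises in rat. Of the 8 genes, 3 were higher in RM (Col4a1, Col4a2 and Col8a1), 3 were lower (Col4a5, Col4a6 and Col8a2), and Col4a3 and Col4a4 were not called. In mouse 6 were lower, Col4a3 was not called, and Col8a1 was higher by 0.21, a value that becomes -0.07 with library size alone.

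Col4a1 and Col4a2 encode the alpha 1 and alpha 2 chains that together make the common type IV collagen of basement membranes. Col4a1 (chr8:11198423-11312826) had FPKM of 6.84, 7.97 and 6.4 in RC and 15.5, 13.8 and 14.5 in RM. Mouse FPKM was 41.5, 40.6 and 40.9 in MC and 23.9, 24.4 and 23.8 in MM. The model libraries were all higher in rat and all lower in mouse, with log2 fold changes of 1.03 (SE 0.0939, edgeR adjusted p = 1.86e-05) and -0.49 (SE 0.0322, edgeR adjusted p = 1.52e-21).

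Col4a2 (chr8:11312805-11449287) followed the same pattern with smaller changes. Its FPKM was 12, 13.8 and 12.9 in RC and 18, 17 and 18 in RM. In MC it was 51.1, 52.9 and 52.9 and in MM 33.6, 33.6 and 34. Again no model library overlaps a control library, and the log2 fold changes were 0.44 (SE 0.0774, edgeR adjusted p = 0.00151) in rat and -0.35 (SE 0.0311, edgeR adjusted p = 5.93e-16) in mouse. Col4a2 was the most abundant network gene in mouse.

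Both genes are transcribed away from a shared start region, and their annotated ends overlap by 22 bases in mouse. In the RefSeq promoter windows for the rat assembly GRCr8, which hold 300 bases around each annotated start, the Col4a1 window at chr16:84885347-84885646 (plus strand) and the Col4a2 window on the minus strand share 176 bases. The Col4a1 window is printed because these neighbours moved together in each species, with the shared bases in capitals. The Col5a3 window at chr8:27625899-27626198 (minus strand) is printed because Col5a3 differed most between the species, with CCAAT and GGGCGG matches on either strand in capitals.
Col4a1: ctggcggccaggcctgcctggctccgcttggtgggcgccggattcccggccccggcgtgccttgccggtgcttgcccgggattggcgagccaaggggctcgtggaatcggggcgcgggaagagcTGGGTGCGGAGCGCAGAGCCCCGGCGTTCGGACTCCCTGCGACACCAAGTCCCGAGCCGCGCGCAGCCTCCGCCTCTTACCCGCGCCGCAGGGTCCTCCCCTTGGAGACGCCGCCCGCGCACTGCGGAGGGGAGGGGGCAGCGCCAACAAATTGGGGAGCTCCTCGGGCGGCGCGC
Col5a3: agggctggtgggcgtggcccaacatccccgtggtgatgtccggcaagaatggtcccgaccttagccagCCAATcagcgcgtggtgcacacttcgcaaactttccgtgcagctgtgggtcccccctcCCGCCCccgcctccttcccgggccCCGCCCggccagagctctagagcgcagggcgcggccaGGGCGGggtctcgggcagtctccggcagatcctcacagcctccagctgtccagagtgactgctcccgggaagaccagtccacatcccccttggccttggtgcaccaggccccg

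A promoter window was found for 29 members. None was found for Col1a1, Col3a1, Col6a2, Col12a1, Col14a1, Col22a1 and Col25a1, so these were not searched for motifs. GGGCGG, on either strand, was in 16 of the 29 (55.2%), against 33.1% of all 33469 rat windows, and the members' windows had a median GC content of 59.7% against 51.7%. CCAAT, on either strand, was in 9 (31%, against 37.5% of all), and TATAAA on the gene strand in 3 (10.3%, against 8.8%). TGANTCA, the motif of AP-1, was in the Col6a1 window alone (3.45%, against 7.33% of all), and the NF-κB motif was in the overlapping Col4a1 and Col4a2 windows (6.9%, against 7.51% of all). These are matches of letters in 300 bases of a newer assembly than the counts used, and no test was made of them.

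Col8a1 and Col8a2 encode the chains of type VIII collagen, a short-chain network collagen of vessel walls and the cornea. Col8a2 (chr4:126286793-126314330) had FPKM of 200, 227 and 207 in RC and 101, 111 and 115 in RM, and was the most abundant network gene in rat. In mouse its FPKM was 51.1, 49 and 49.1 in MC and 0.656, 0.809 and 0.803 in MM. It was lower in every model library of both species, with log2 fold changes of -0.97 (SE 0.0737, edgeR adjusted p = 4.98e-06) and -5.76 (SE 0.0662, edgeR adjusted p = 2.15e-62), the latter being the largest fall among the mouse members. Col8a1 was at 95.3 ± 6.6 in RC and 117 ± 11.4 in RM, and at 19.4 ± 1.21 in MC and 18.4 ± 0.246 in MM (FPKM, SD, n = 3). Its rat call (log2 fold change 0.28, edgeR adjusted p = 0.024) was lost when RC2, RC3, RM1 or RM2 was left out, with adjusted p from 0.0675 to 0.114.

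The remaining type IV chains, which build the specialised basement membranes of kidney, ear and muscle, were lower in 2 of 4 genes in rat and in 3 of 4 in mouse. Col4a5 had a mean FPKM of 12.4 in RC, 8.15 in RM, 34.4 in MC and 4.73 in MM, with log2 fold changes of -0.62 and -2.59. Col4a6, which starts 1308 bases from Col4a5 on the other strand of the mouse X chromosome, fell from 0.368 to 0.168 and from 2.62 to 0.291, and the rat call (edgeR adjusted p = 0.0249) was lost without RC3, RM1 or RM2, with adjusted p from 0.0835 to 0.0982. Col4a3 and Col4a4 stayed under 0.4 FPKM in every library, and only Col4a4 in mouse was called, with a fall of 1.26. An antisense gene, C430014B12Rik, shares 5.65% of the mouse Col4a3 exon length.

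FACIT collagens fell in rat, where 3 of the 4 tested were lower and Col22a1 was not called, and gave 2 falls and 2 rises among 6 tested in mouse. Rat Col22a1 was at -1.14 (edgeR adjusted p = 0.0604) on 83 reads in RC and 38 in RM, and was called without RC1 (-1.4, adjusted p = 0.014) or without RM1 (-1.59, adjusted p = 0.0356). Col12a1 (chr9:79598991-79718831), a large FACIT chain of tendon and dense connective tissue, was the most abundant of the class in mouse. It had FPKM of 90, 96.2 and 76.5 in RC and of 46.9, 54.5 and 49.8 in RM. In mouse the values were 184, 185 and 193 in MC and 121, 115 and 120 in MM. All model libraries were lower, and on TMM scaling the log2 fold change was larger in rat, at -0.81 (SE 0.0922, edgeR adjusted p = 8.26e-05), than in mouse, at -0.38 (SE 0.0247, edgeR adjusted p = 8.97e-22). With library size alone the difference between the species was 0.14 and was not called (edgeR adjusted p = 0.239).

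Col14a1 (chr15:55307750-55520803), a FACIT chain that regulates fibril growth, was the most abundant of the class in rat. Its FPKM was 117, 119 and 100 in RC and 48.6, 58.6 and 51.7 in RM. In mouse it was 7.62, 7.67 and 7.5 in MC and 0.192, 0.233 and 0.302 in MM. The mouse gene went from a modest level to nearly none, on 2766 reads in the MC libraries together and 96 in the MM libraries, while the rat gene was at a mean of 53 FPKM in RM. The log2 fold change was -1.1 (SE 0.0924, edgeR adjusted p = 1.03e-05) in rat and -4.7 (SE 0.109, edgeR adjusted p = 2.68e-45) in mouse.

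Col16a1 (chr4:130047840-130099283), a FACIT chain found in cartilage and skin, moved in opposite directions. It was at 56.8, 58.3 and 55.9 FPKM in RC and at 28.8, 32.8 and 35.3 in RM. In MC it was at 27.7, 28.5 and 26.5 and in MM at 31.5, 31.8 and 32.8. The groups are separate in both species, but the mouse rise is small, with log2 fold changes of -0.83 (SE 0.0804, edgeR adjusted p = 2.69e-05) and 0.49 (SE 0.0343, edgeR adjusted p = 2.37e-20). Col19a1 rose in mouse at a very low level, from 0.0918 to 0.351 mean FPKM (33 to 138 reads), and Col20a1 and Col22a1 were not called there on TMM scaling (log2 fold changes of -0.46 and -0.26). With library size alone both were called, at -0.73 for Col20a1 (edgeR adjusted p = 0.0481) and -0.53 for Col22a1 (edgeR adjusted p = 0.0215), and Col22a1 was also called with limma on FPKM (adjusted p = 0.0381 and 0.0413).

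Beaded filament collagens fell in both species. In rat only Col6a1 and Col6a2 of the 7 genes in the table were tested, and both fell. In mouse all 6 tested fell, by 0.5 to 1.48 on the log2 scale for the 3 type VI chains of high level. Col6a6 and Col26a1 passed the filter on low counts through MC alone, so their falls and any median over the class are set in part by the filter. Col6a1 (ENSRNOG00000001249, ENSMUSG00000001119, chr10:76708792-76726168) encodes the alpha 1 chain of type VI collagen, and was the most abundant of the class in both species. It was at 1215, 1347 and 1225 FPKM in RC and at 807, 803 and 810 in RM. The mouse gene was at 459, 476 and 463 in MC and at 170, 165 and 177 in MM. Every model library was below every control library, with log2 fold changes of -0.66 (SE 0.0589, edgeR adjusted p = 1.54e-05) and -1.17 (SE 0.0263, edgeR adjusted p = 4.36e-46).

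The other type VI chains fell by unequal amounts in mouse. Col6a2, the alpha 2 chain, was at 1154 ± 89.5 FPKM in RC, 721 ± 34 in RM, 155 ± 1.81 in MC and 45.8 ± 1.13 in MM (SD, n = 3), with log2 fold changes of -0.69 and -1.48. Col6a3, the long alpha 3 chain measured in mouse, fell from 257 ± 4.3 to 150 ± 3.46, by 0.5. Col28a1 fell from 2.12 to 0.225 mean FPKM in mouse, and Col6a6 and Col26a1, both under 1 FPKM in every library, fell by 5.1 (429 reads in MC and 11 in MM) and 4.4 (101 and 4 reads) on the log2 scale. The level order of the first 3 chains differed between the tables, with Col6a1 and Col6a2 at similar FPKM in rat and Col6a1 above Col6a3 and Col6a2 in MC. The implied length of Col6a2 is 3695 bases in rat and 8326 in mouse, which enters these levels directly.

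The members outside the 4 classes were divided in both species, with 2 higher and 1 lower of 6 tested in rat and 3 higher and 2 lower of 6 tested in mouse. Col7a1 (chr9:108953586-108984875), the chain of the anchoring fibrils that fasten epithelia, had the largest rise among the rat members. It was at 0.254, 0.319 and 0.263 FPKM in RC and at 1.4, 1.12 and 1.12 in RM. In mouse it was at 0.335, 0.248 and 0.325 in MC and at 0.141, 0.199 and 0.217 in MM. The RM libraries were all higher at a low level, while the MM libraries were all slightly lower, with log2 fold changes of 2.1 (SE 0.164, edgeR adjusted p = 6.23e-06) and -0.44 (SE 0.227, edgeR adjusted p = 0.0758, not called). The mouse value was called with library size alone (-0.72), with limma on FPKM and without MC2 (-0.56, edgeR adjusted p = 0.0399).

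Col23a1 and Col25a1 encode transmembrane collagens. Col23a1 (chr11:51289920-51583918) was at 1.14, 1.3 and 1.23 FPKM in MC and at 19.1, 17.6 and 18.4 in MM. In rat it was at 0.772, 2.12 and 0.593 in RC and at 1.91, 1.81 and 0.698 in RM. The mouse groups are far apart and gave the largest rise among the mouse members, a log2 fold change of 4.18 (SE 0.0664, edgeR adjusted p = 1.52e-54), whereas the rat groups overlap and 0.31 was not called (SE 0.496, edgeR adjusted p = 0.659). The rat value ranged from 0.01 without RC3 to 1.07 without RC2, was not called without any 1 library, and rests on 97 reads in RC and 122 in RM, over an implied gene length of 1197 bases against 5736 in mouse.

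Col25a1 (chr3:130131501-130599877), the transmembrane collagen of neurons and developing muscle, was low in both species. It was at 0.436, 0.337 and 0.4 FPKM in RC and at 0.897, 0.721 and 1.13 in RM. The mouse gene was at 0.131, 0.197 and 0.267 in MC and at 0.00385, 0.0474 and 0.0353 in MM. The groups are separate in both species and opposite in direction, with log2 fold changes of 1.2 (SE 0.295, edgeR adjusted p = 0.00996) on 45 and 106 reads in rat, and -2.51 (SE 0.38, edgeR adjusted p = 2.95e-08) on 134 and 21 reads in mouse. Mouse Col25a1 passed the filter on low counts through MC, where it was higher, so its fall and the test of it are a description only. Its implied gene length was 1659 bases in rat against 12947 in mouse, which limits the comparison between the species. Col17a1, a hemidesmosome collagen, rose in mouse from 0.223 to 0.355 mean FPKM and was not called in rat (log2 fold change -0.71, edgeR adjusted p = 0.0715).

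Col15a1 and Col18a1 encode the related types XV and XVIII of basement membrane zones. Col15a1 (chr4:47208161-47313167) was at 0.982, 3.06 and 3.56 FPKM in RC and at 0.563, 1.58 and 1.27 in RM. In mouse it was at 2.83, 2.8 and 2.78 in MC and at 0.102, 0.177 and 0.0631 in MM. The rat groups overlap because RC1 is low, while the mouse groups are far apart, with log2 fold changes of -1.15 (SE 0.44, edgeR adjusted p = 0.0665, not called) and -4.31 (SE 0.18, edgeR adjusted p = 2.97e-31). Mouse Col15a1 had 924 reads in MC and 42 in MM. It passed the filter on low counts through MC, so its fall and the test of it are a description only. Without RC1 the rat value was -1.55 and was called (edgeR adjusted p = 0.000118), and it was also called with the replicate number as a block (adjusted p = 0.000312) and without the filter on low counts (adjusted p = 0.0155).

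Col18a1 (chr10:77052178-77166548), whose end is released as endostatin, was at 40.8, 47 and 43.1 FPKM in RC and at 21.1, 21 and 25.7 in RM. The mouse gene was at 12.8, 13.1 and 13.3 in MC and at 20.4, 20.4 and 20.8 in MM. The groups are separate in both species and opposite in direction. The log2 fold change was -0.96 (SE 0.0936, edgeR adjusted p = 2.8e-05) in rat and 0.93 (SE 0.0385, edgeR adjusted p = 1.4e-31) in mouse.

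A further group of members was too low to test. In rat these were Col13a1, Col19a1, Col20a1, Col26a1, Col28a1, Col6a4, Col6a5 and Col6a6, with at most 38 reads in the 3 libraries of a group. In mouse they were Col13a1, Col6a4 and Col6a5, with at most 33. No fold is given for them. Col28a1 and Col6a6 were thus testable in mouse, at 539 and 429 reads in MC, and not in rat, at 2 and 19 reads in RC.

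The change itself was compared between the species in a joint fit of the 10912 genes tested in both, as the log2 fold change in mouse minus that in rat. It differed for 23 of the 27 members tested in both (85.2%), against 63.8% of all genes tested. In 8 members the difference was positive and in 15 negative. It was not called for Col22a1, Col24a1, Col4a3 and Col8a1. The Col22a1 difference was called without RC1 (1.17, edgeR adjusted p = 0.0168) or without RM1 (1.33, edgeR adjusted p = 0.0172). With library size alone the difference was called for Col8a1 (-0.37) and no longer for Col12a1.

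A total of 8 members were called in opposite directions (29.6%), against 12.5% of all genes tested in both species. Col25a1, Col4a1 and Col4a2 rose in rat and fell in mouse, where Col25a1 passed the filter on low counts through MC. Col16a1, Col18a1, Col3a1, Col5a2 and Col5a3 fell in rat and rose in mouse, with Col3a1 doing so only after TMM or RLE scaling. Another 11 were lower in both (40.7%, against 10.1% of all genes), namely Col1a1, Col1a2, Col24a1, Col5a1, Col4a5, Col4a6, Col8a2, Col12a1, Col14a1, Col6a1 and Col6a2. Only Col8a1 was called higher in both, where 9.28% of all genes were, and its mouse direction depends on the scaling.

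The difference was largest for Col5a3, at 4.86 (SE 0.088, edgeR adjusted p = 1.94e-16). It was -4.79 (SE 0.111) for Col8a2, 3.88 (SE 0.453) for Col23a1, -3.71 (SE 0.584) for Col25a1, -3.6 (SE 0.166) for Col14a1 and -3.18 (SE 0.677) for Col15a1, with edgeR adjusted p from 2.84e-15 (Col8a2) to 0.000588 (Col15a1). For Col8a2, Col14a1 and Col15a1 the fitted change was negative in both species and greater in mouse, although Col15a1 was not called in rat. Mouse Col15a1 and Col25a1 passed the filter on low counts through MC, so the rank of their differences is a description only. At the other end, Col5a1 (-0.28), Col12a1 (0.43), Col6a1 (-0.51) and Col1a1 (-0.58) differed by small amounts. Network genes with a called difference were all lower in mouse relative to rat, in 6 of 6. This direction is not particular to the class. It was also that of 2 of 2 beaded genes, 8 of 8 cartilage collagens and 15 of the 23 members with a called difference. The share of all genes with this direction is not given here.

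**Figure D3:**
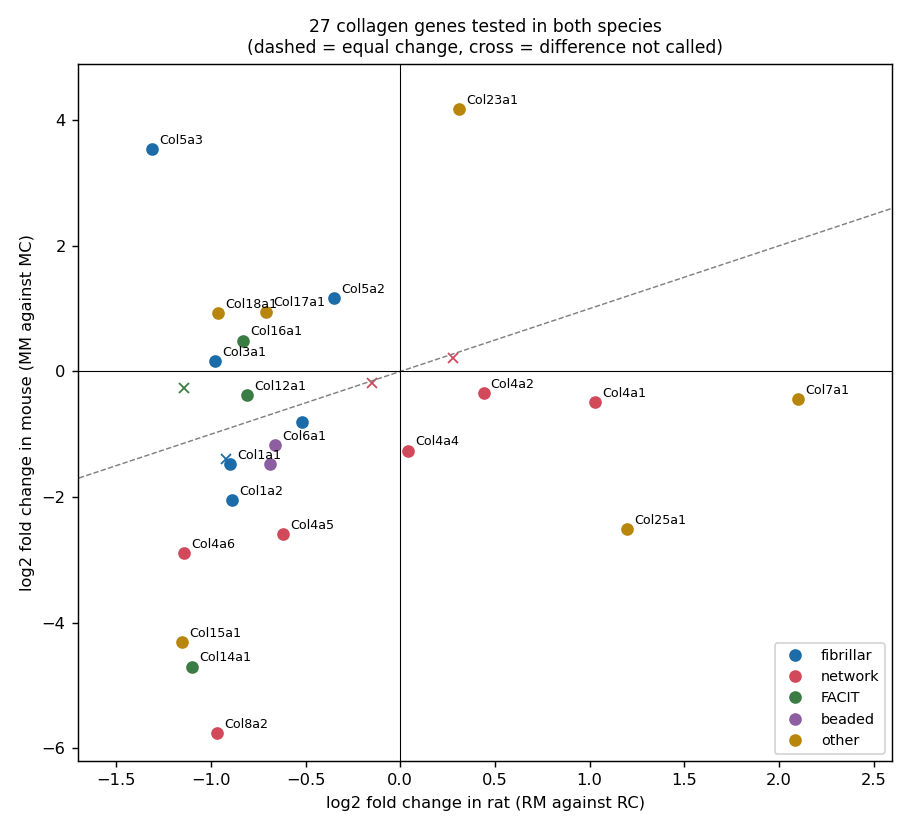
Each point is a collagen gene tested in both species, with the log2 fold change in rat on the x axis and in mouse on the y axis, which cover different ranges. The dashed line marks equal change and crosses mark the 4 genes whose difference was not called. Points at the upper left (Col5a3, Col5a2, Col18a1, Col16a1 and, by 0.16 on TMM scaling but -0.12 with library size alone, Col3a1) fell in rat and were positive in mouse, and Col25a1, Col4a1 and Col4a2 at the lower right did the reverse. Col17a1 (not called in rat) also lies at the upper left. Col7a1 (not called in mouse) and Col4a4 (not called in rat) also lie at the lower right.

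The summed level of all members was lower in both model groups, and 8 of the 10 class shares did not overlap between groups, the rat FACIT share only just. The summed FPKM was 7028 ± 466 in RC and 4271 ± 98.6 in RM (SD, n = 3), a ratio of 0.608. It was 5074 ± 23.8 in MC and 2448 ± 13.9 in MM, a ratio of 0.482. The cartilage collagens were lower still, at 0.406 of the control sum in rat and 0.0926 in mouse. As a result the members made up more of all collagen FPKM in the model groups, since the cartilage share was 41.1% in RC and 31.8% in RM, and 27.9% in MC and 6.91% in MM. For each of these sums the exact permutation test over 3 libraries against 3 gave p = 0.1, two-sided, the smallest it can give.

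The rat sums lack Col6a3 and hold the low Col1a2 level, so shares are read within a species. Fibrillar genes held 56.4% ± 0.333 of the members' FPKM in RC and 54.1% ± 0.474 in RM, and 73.9% ± 0.238 in MC and 73.8% ± 0.494 in MM. The beaded share was 34.4% ± 0.448 in RC and 35.8% ± 0.53 in RM, and 17.4% ± 0.24 in MC and 15% ± 0.374 in MM. The mouse fibrillar share differed by -0.0931 percentage points, within its spread, while Col1a1 fell and Col5a2 rose inside the class, and as a share of counts it was 75% in MC and 73.4% in MM. The network share was 4.84% in RC and 6.26% in RM, and 3.94% in MC and 3.36% in MM. FACIT genes held 3.66% in RC and 3.18% in RM, and 4.4% in MC and 6.2% in MM. The rat FACIT groups barely separate, at 3.45% in RC3 and 3.44% in RM2. As shares of counts they overlap, with an exact permutation p of 0.2. The shares of a library add up to the whole, so they are not separate results. The other members held 0.687% and 0.644% in rat, and 0.352% and 1.62% in mouse, where Col23a1 and Col18a1 rose. Over the 10 shares tested by exact permutation, p was 0.1 (adjusted p = 0.125) for 8, 0.2 for the rat share of the other members and 0.8 for the mouse fibrillar share.

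**Figure D4:**
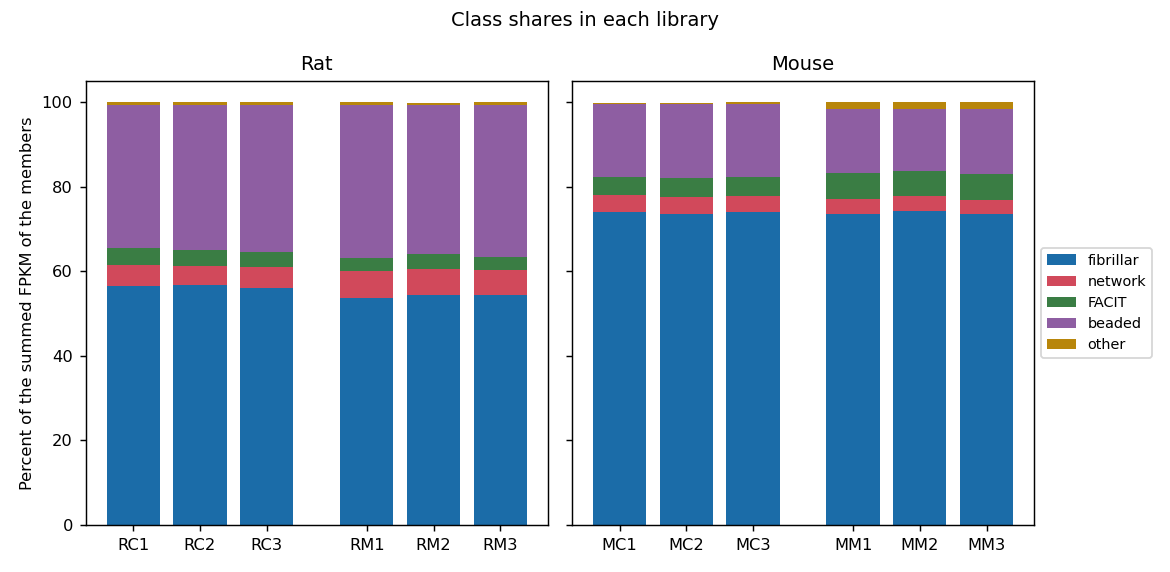
Each bar is a library and its parts are the percent of the summed FPKM of the members held by each class, for rat (left) and mouse (right). The rat sum holds no Col6a3 and little Col1a2, so heights are to be read within a panel. Beaded genes hold 33.9% to 36.3% of the rat bars and 14.6% to 17.6% of the mouse bars, the mouse fibrillar share averages 73.9% in MC and 73.8% in MM, and the mean share of the other members goes from 0.352% in MC to 1.62% in MM.

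Ratios of chains within a library do not depend on the scaling between libraries. Col8a1 over Col8a2 moved most in both species. Its log2 ratio was -0.98, -1.36 and -1.11 in RC and 0.35, 0.07 and -0.11 in RM, and -1.41, -1.25 and -1.43 in MC and 4.81, 4.53 and 4.5 in MM. On the linear scale the ratio was 0.45 in RC, 1.07 in RM, 0.389 in MC and 24.5 in MM. Col8a2 was thus the chain with the higher FPKM in both control groups and the lower in MM.

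In mouse the ratio of Col3a1 to Col1a1 went from 0.18 to 0.56, a log2 difference of 1.64, against -0.09 in rat. The ratio of Col5a1 to Col5a2 went from 0.778 to 0.197 in mouse, a difference of -1.98, against -0.17 in rat. Both mouse ratios moved by far more than their spread between libraries, which was at most 0.04 on the log2 scale. Col1a1 over Col1a2 rose by 0.57 in mouse, Col6a1 over Col6a2 by 0.3 and Col6a3 over Col6a1 by 0.68, while the rat ratios of the first pairs differed by 0.03 each, within their spread.

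Chains of the type IV pair also changed in proportion. Col4a1 over Col4a2 was 0.546 in RC and 0.824 in RM, and 0.784 in MC and 0.712 in MM. The log2 difference was 0.59 in rat and -0.14 in mouse, with no overlap between groups in either. Col4a5 over Col4a6 differed by 0.63 in rat, where the groups overlap, and by 0.31 in mouse, and Col4a3 over Col4a4 by 1.17 in mouse on few reads. Of the 16 ratios compared, 11 had the smallest exact permutation p of 0.1 (adjusted p = 0.145), which 3 libraries a group cannot go below.

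**Figure D5:**
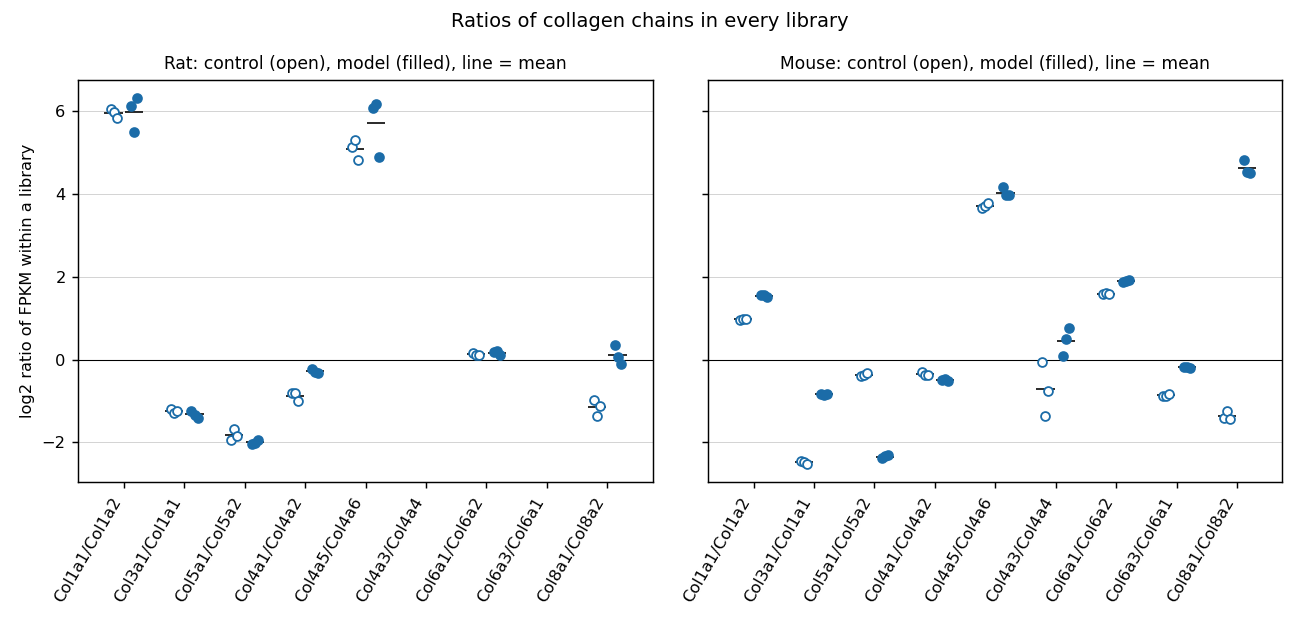
The y axis is the log2 ratio of FPKM of the named chains within each library, with control libraries open, model libraries filled and the mean as a line, for rat (left) and mouse (right). Mouse Col8a1/Col8a2 moves from -1.36 to 4.61, and Col3a1/Col1a1 and Col5a1/Col5a2 move in mouse and their group means differ by -0.09 and -0.17 in rat. Pairs without a point had under 10 reads of a gene in a library or no row for a chain.

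Genes listed under making, exporting, processing or binding collagen were counted by list. The role of each listed gene in these steps was not tested. In rat 29 of 38 tested were called, 24 lower and 5 higher, and in mouse 38 of 41, 26 lower and 12 higher. The lower genes are 63.2% in rat, against 16.8% of all genes tested, and 63.4% in mouse, against 37.7%. The higher genes are 13.2% in rat, against 18.3% of all, and 29.3% in mouse, against 37.4%. Among hydroxylation and folding genes, 11 of 17 were lower and 3 higher in rat, and 10 of 18 lower and 8 higher in mouse. Among export genes 3 of 7 were lower (Tango2, Sec24d and Creb3l1) and none higher in rat, and 5 of 8 were lower and 1 higher in mouse. Propeptide processing genes were lower in 5 of 7 and higher in none in rat, and lower in 6 of 8 and higher in 1 in mouse. The 1 higher, Tll2 (2 reads in MC, 54 in MM), passed the filter on low counts through MM. Its rise, which is among the 12 above, is a description only. Collagen receptors were lower in 5 of 7 and higher in 2 in each species. These counts are on TMM scaling, and some mouse rises in them depend on it. With library size alone the log2 fold change was 0 for the receptor Ddr2 and -0.02 for the export gene Mia2. P3h3 was counted as higher at 0.3, while its FPKM groups overlap.

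P4ha3, a prolyl 4-hydroxylase subunit, rose in rat from 51.1 ± 2.9 to 72.8 ± 1.74 FPKM and fell in mouse from 23.8 ± 0.331 to 2.64 ± 0.352 (SD, n = 3). Plod1, a lysyl hydroxylase, rose in mouse from 48.1 ± 1.16 to 139 ± 2.1 and was not called in rat, at 131 ± 9.48 and 121 ± 2.39. Of the propeptide genes, Pcolce2, an enhancer of procollagen cleavage, had a mean FPKM of 96.1 in RC, 30 in RM, 17.7 in MC and 2.03 in MM, and Adamts3, a procollagen N-proteinase, fell from 2.47 to 0.474 in mouse and was not called in rat except without RM3 (log2 fold change -0.55, edgeR adjusted p = 0.0411). The receptor Itga1, an integrin subunit for type IV and other collagens, rose in rat and fell in mouse. It was at a mean FPKM of 12 in RC, 19.9 in RM, 5.14 in MC and 0.752 in MM.

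Ddr2, a kinase receptor for fibrillar collagen, fell from 87.2 to 61.9 mean FPKM in rat and was at 76.7 in MC and 76.9 in MM, where the groups overlap. Its fitted mouse value of 0.28 after TMM scaling was 0 with library size alone and with limma on FPKM and was then not called, so no mouse direction is given. Of the export genes, Creb3l1, a transcription factor that controls secretory genes, fell in both species, from a mean FPKM of 86.8 to 43.2 in rat (log2 fold change -1.02, edgeR adjusted p = 6.46e-05) and from 41.1 to 19 in mouse (-0.84, edgeR adjusted p = 1.16e-25). It was named after its values were seen. Sec13, a COPII coat subunit, fell by 0.36 on the log2 scale in mouse and was not called in rat (-0.13) except without RC1 (-0.18, edgeR adjusted p = 0.039). Mia2, a cargo receptor at exit sites, was 0.26 in mouse, called on TMM scaling and at -0.02 with library size alone, and 0.02 in rat.

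The cartilage set itself is given for comparison. In rat 7 of 8 fell (87.5%, against 16.8% of all genes tested) and Col10a1 was not called, with fitted log2 fold changes from -2.42 to -0.32. In mouse all 8 fell (against 37.7% of all genes tested), with log2 fold changes from -4.21 to -1.3. None rose in either species. Outside the set, 5 members rose in rat, 18.5% of those tested against 18.3% of all genes. In mouse 9 rose, 27.3% against 37.4% of all genes. Of these 9, 2 rose only with TMM or RLE scaling, and Col19a1 (33 and 138 reads) passed the filter on low counts through MM.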

How the data were processed

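RNA-seq was measured in 12 chondrocyte libraries, 3 per group. Groups (RC and RM from rat, MC and MM from mouse) follow the treatment labels. For each species the authors deposited raw read counts per Ensembl gene and FPKM values made from these counts. The submitters' processing notes name HISAT2, HTSeq 0.11.2 and the builds GRCm38 and Rnor_6.0. Whether counting used the strand is not given in the sources used here, so overlapping genes are uncertain. The mouse gene lengths implied by the FPKM values equal the merged exon length of GENCODE M21 within 1 base for 39 of 41 collagens, so mouse coordinates come from it and no rat gene coordinates are given. Rat lengths are mostly shorter, which limits comparing levels between species.

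Counts were tested in R 4.3.3 with edgeR 4.0.16 (filterByExpr, TMM, glmQLFit and glmQLFTest), each species alone, with Benjamini-Hochberg adjustment of P across the genes of that species' fit. The difference between the species was fitted over genes shared by symbol. A standard error is the size of the log2 fold change divided by the square root of F. Shares and chain ratios were compared by exact permutation tests (SciPy 1.17.1, two-sided). The scripts were tested on simulated data. Alternatives were library size alone, RLE size factors, no filter, DESeq2 1.42.0, limma 3.58.1 on log2(FPKM + 1) and log2(FPKM + 0.1), the replicate number as a block, each library left out, a stricter call rule and other units and denominators for shares and ratios.

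The members, classes, gene lists and tests were chosen with earlier results of these data known. Values in every library are given for Col1a1, Col3a1, Col5a3 and Col6a1, for the most abundant tested member of each class and species, for every member called in opposite directions, and for the 3 largest called rises and falls per species with an FPKM of at least 1 in 1 library. Of each production list, the 2 genes with the smallest adjusted P of the difference are named. Promoter windows are from RefSeq (GRCr8) and coding sequences are the longest complete ones per gene in GENCODE M21.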

Additional observations from a re-analysis of the deposited data

Results flagged for a closer look

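The change with IL-1β differed between the species, by the test of the difference in the joint edgeR fit, for the members given here as the log2 fold change in mouse minus that in rat. Among fibrillar genes it was 4.86 for Col5a3, 1.52 for Col5a2, 1.14 for Col3a1, -1.17 for Col1a2, -0.58 for Col1a1 and -0.28 for Col5a1. Col3a1 kept a called difference with library size alone (0.85), although its mouse direction turned.

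Among network genes the difference was -4.79 for Col8a2, -1.96 for Col4a5, -1.76 for Col4a6, -1.52 for Col4a1, -1.31 for Col4a4 and -0.79 for Col4a2. The Col4a4 value rests on under 200 reads per group and was not called without RM2 (-0.95, adjusted p = 0.0636).

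Among FACIT genes it was -3.6 for Col14a1, 1.33 for Col16a1 and 0.43 for Col12a1, and among beaded filament genes -0.51 for Col6a1 and -0.78 for Col6a2. Of the other members it was 3.88 for Col23a1, -3.71 for Col25a1, -3.18 for Col15a1, -2.54 for Col7a1, 1.9 for Col18a1 and 1.66 for Col17a1. Mouse Col25a1 and Col15a1 passed the filter on low counts through MC, where they were higher.

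Of the production genes named, it was -3.4 for P4ha3, 1.93 for Plod1, -1.14 for Pcolce2, -1.71 for Adamts3, -3.21 for Itga1, 0.79 for Ddr2 and -0.23 for Sec13. The Sec13 difference was not called without MM3 (-0.21, adjusted p = 0.0521). Across all genes tested in both species 63.8% differed, so a called difference alone is common here.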

How the results depend on the processing

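Requiring a log2 fold change of at least 0.85 and an FPKM of at least 1 left 10 rat members called (3 higher, 7 lower) of 21 and 15 mouse members (4 higher, 11 lower) of 29. Leaving out each library in turn gave 18 to 23 rat members called, 29 to 30 in mouse and 22 to 24 differences. Over the members and named production genes, 1520 of the recomputed values kept direction and call, 20 lost a call, 20 gained one and 23 changed sign.

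Library size alone and limma on FPKM turned mouse Col3a1 to -0.12 and Col8a1 to -0.07, and Mia2 to -0.02 (library size and a pseudocount of 0.1) or -0.01 (pseudocount 1), and the Mia2 difference to -0.05 with library size alone. These scales leave out the TMM factors, which differ between MC (1.099 to 1.104) and MM (0.905 to 0.9105). Values of few reads changed sign when 1 library was left out, with ranges of -0.45 to 0.54 for Col4a3 and -0.3 to 0.42 for Col4a4 in rat, -0.44 to 0.08 for Col4a3 in mouse, -0.73 to 0.24 for the Col4a3 difference and -0.06 to 0.12 for Mia2 in rat, and the Mia2 difference was called without RC2 (0.32, adjusted p = 0.0142) or RM2 (0.31, adjusted p = 0.0347).

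As shares of all collagen FPKM, cartilage set included, the change of share was 3.69 percentage points for fibrillar, 0.0135 for FACIT and 0.0346 for the other genes in rat, and 15.4 for fibrillar, 0.286 for network and 1.42 for beaded genes in mouse, each positive where the share among members was lower in the model. The denominator loses the cartilage genes, which fell further. Without 1 library the mouse fibrillar change ranged from -0.373 to 0.0937 and the rat log2 ratio of Col1a1 to Col1a2 from -0.14 to 0.27.

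Replicate numbers recur in each group but libraries with the same number did not deviate together (correlations of -0.098 to 0.085 in rat and 0.001 to 0.015 in mouse). With the replicate number as a block, 22 rat and 29 mouse members were called and 23 differences, and the only member whose call changed was rat Col15a1 (-1.12, adjusted p = 0.000312). At this depth the members with at most 38 reads per group in rat, and 33 in mouse, were not tested in that species.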

Other observations

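The order of the members by FPKM is given within each table. In RC it began with Col1a1 (2164), Col6a1 (1262), Col6a2 (1154), Col3a1 (917) and Col5a2 (641). In MC it began with Col1a1 (1887), Col1a2 (963), Col6a1 (466), Col3a1 (339) and Col5a2 (313). In MM Col5a2 (580) and Col1a1 (558) stood first and Col5a3 (49) ninth, while in RM Col1a1 (1176) stayed first. A mean above 1 FPKM was reached by 19 members in RC, 20 in RM, 23 in MC and 17 in MM. Neighbours in this order can be close, as Col6a1 and Col6a2 in RC (1262 ± 73.4 and 1154 ± 89.5, SD, n = 3). Within each RC library Col6a1 was above Col6a2, with log2 ratios of 0.17, 0.1 and 0.12. Levels between genes depend on the gene lengths behind the FPKM values, and for Col3a1 and Col5a2 these were 4765 and 4482 bases in rat and 9816 and 9591 in mouse.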
